A study of Mus musculus with 10 samples.

Results

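Prohormone processing enzymes and granins are the genes by which a neuron turns peptide precursors into neuropeptides and packs them into dense-core vesicles. The 10 genes described here are Pcsk1, Pcsk2, Pcsk1n, Scg5, Cpe, Pam, Chga, Chgb, Scg2 and Vgf, taken by symbol from the 25006 Ensembl genes listed for each neuron, and 10 of 10 were found. They were measured in 10 single neurons of the mouse nucleus of the solitary tract, where sensory fibres from the viscera enter the brainstem. The mice were C57BL/6, 3 months old, and all carried LepRb-Cre and Halo-eYFP, so that cells which expressed the long leptin receptor were fluorescent. A Cre reporter stays on once it has recombined, so it marks past as well as present expression of the receptor. The contents of each cell, cytoplasm and nucleus, were drawn into a patch pipette from an acute slice 285 microns thick and made into 1 library. The labels call 5 neurons type 2 by firing property (6-2, 10-1, 10-3, 9-2 and 9-4) and 5 type 1 (1-1, 1-2, 4-3, 8-2 and 9-1), without saying what the firing properties or the numbers stand for. The labels name no animal, which leaves each firing type as 1 sample. Levels are therefore shown neuron by neuron, SDs are spread between cells, and no test between the types was made. The question asked of these genes is how their levels compare with the peptide precursors made in each firing type.

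Most neuropeptides are cut out of a longer precursor at pairs of basic residues, lysine or arginine. The prohormone convertases PC1/3, made from Pcsk1, and PC2, made from Pcsk2, cut behind such pairs inside the maturing vesicle. Carboxypeptidase E, from Cpe, then trims the exposed basic residues, and the amidating enzyme made from Pam converts a terminal glycine into an amide. Granins are acidic secretory proteins that are abundant in the same vesicles and are themselves cut into peptides. Proglucagon is the classic case of a precursor whose products depend on the convertase: in pancreatic alpha cells PC2 releases glucagon, while in intestinal L cells and in neurons of this nucleus PC1/3 releases glucagon-like peptides.

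Pairs of basic codons, at which such enzymes can act, are shown in the coding sequences of Gcg and Gal. These precursors had the highest mean level in type 2 and in type 1. In the type 2 neurons 10-1 and 10-3, Penk, for proenkephalin, exceeded Gcg, and no Penk sequence is shown. The sequences are the coding strands of the transcripts Gcg-201 and Gal-202 of the GENCODE M21 annotation on GRCm38. The Gcg stretch covers codons 49 to 148 of 180 and runs through the coding parts of glucagon and of the first glucagon-like peptide (GLP-1), ending a few codons into that of the next peptide. The Gal stretch covers codons 29 to 70 of 124 and runs through the galanin coding part. Capitals mark each pair of adjacent lysine or arginine codons, with a glycine codon in front of the pair where there is one. A marked pair is a match of letters, and not every pair is cut.
Gcg: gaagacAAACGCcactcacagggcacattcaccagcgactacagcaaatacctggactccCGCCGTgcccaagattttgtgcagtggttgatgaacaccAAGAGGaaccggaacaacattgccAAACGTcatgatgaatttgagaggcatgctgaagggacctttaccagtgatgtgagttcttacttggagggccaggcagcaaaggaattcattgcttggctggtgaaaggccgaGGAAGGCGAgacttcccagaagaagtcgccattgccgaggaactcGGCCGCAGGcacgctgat
Gal: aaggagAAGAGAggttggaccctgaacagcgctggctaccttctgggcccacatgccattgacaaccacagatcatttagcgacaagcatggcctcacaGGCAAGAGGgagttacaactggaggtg
The whole Gcg coding sequence held 7 such pairs, 2 of them with a glycine codon in front, and the stretch shows 6. The Gal coding sequence held 3 pairs, 1 of them behind a glycine codon, and the stretch shows 2. A glycine in that place can serve the amidating enzyme once the basic residues are gone. Gcg lies at chr2:62474530-62483650 on the minus strand of GRCm38 and Gal at chr19:3409915-3414544 on the minus strand.

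Library totals ran from 9796799 counts in 4-3 to 41844825 in 8-2, and were under 20000000 in 6-2 of type 2 and in 1-1, 1-2 and 4-3 of type 1. Every library held neuronal RNA, with 9 to 12 of 12 neuron markers detected in type 2 and 10 to 12 in type 1, and Lepr was detected in 4 type 2 and 2 type 1 neurons. A gene is called detected where it reached both 10 CPM and 3 counts, CPM being counts scaled to the same total in each library. Microglia markers differed between the types, though not in every neuron: 14 of 14 were detected in at least 1 type 2 neuron, and 6 of 14 in type 1. Their summed level ran from 4.25 to 1846 CPM in type 2 (median 524) and from 0.0668 to 807 CPM in type 1 (median 59.6). In type 2, 13 were detected in 6-2, 13 in 9-4, 7 in 9-2, 1 in 10-3 and 0 in 10-1. At most 5 were detected in a type 1 neuron, and none of the 14 was at 0 in all neurons. Astrocyte markers summed to 0.0721 to 189 CPM in type 2 and 0.134 to 283 CPM in type 1, with 6 and 4 of 14 detected, and Gjb6 and Slc1a3 were at 0 in all 10 neurons. Oligodendrocyte markers, 3 of 14 detected in each type, summed to 39.2 to 220 CPM in type 2 and 2.14 to 1047 CPM in type 1, with Opalin, Olig2 and Sox10 at 0. Vascular and blood markers, 1 of 14 detected in each type, summed to 0.608 to 10.8 CPM in type 2 and 2.87 to 28.0 CPM in type 1. The part of these cells' RNA in the values below was not tested. Where a value without 6-2, 9-2 and 9-4 is given, it rests on 10-1 and 10-3 alone for type 2 and keeps the type 1 neuron 1-2. In 1-2, 5 microglia markers were detected and their sum was 807 CPM.

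Across the 10 genes, 3 differed by at least 2-fold between the firing types. Pcsk1 was higher in type 2, Pcsk2 and Cpe were lower, and the other 7 lay within 2-fold. The measure is the mean log2(CPM + 1) of type 2 minus that of type 1, called log2 difference from here on, and 2-fold is a difference of 1. Among the 9212 genes whose mean reached 10 CPM, 32.1% were at least 2-fold higher in type 2 and 22.3% at least 2-fold lower, so 1 higher and 2 lower of 10 is not more than these cells show in general. The median log2 difference was -0.29 over the 10 genes, against 0.24 over all 9212. Measured from that median, Pcsk1 was at 1.51, Cpe at -1.77 and Pcsk2 at -3.78, and Scg5 also passed 2-fold, at -1.15. For 0 of the 10 genes did the 5 type 2 values lie entirely above or below the 5 type 1 values, where 1.72% of all genes had type 2 entirely above and 0.738% entirely below.

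**Figure D1:**
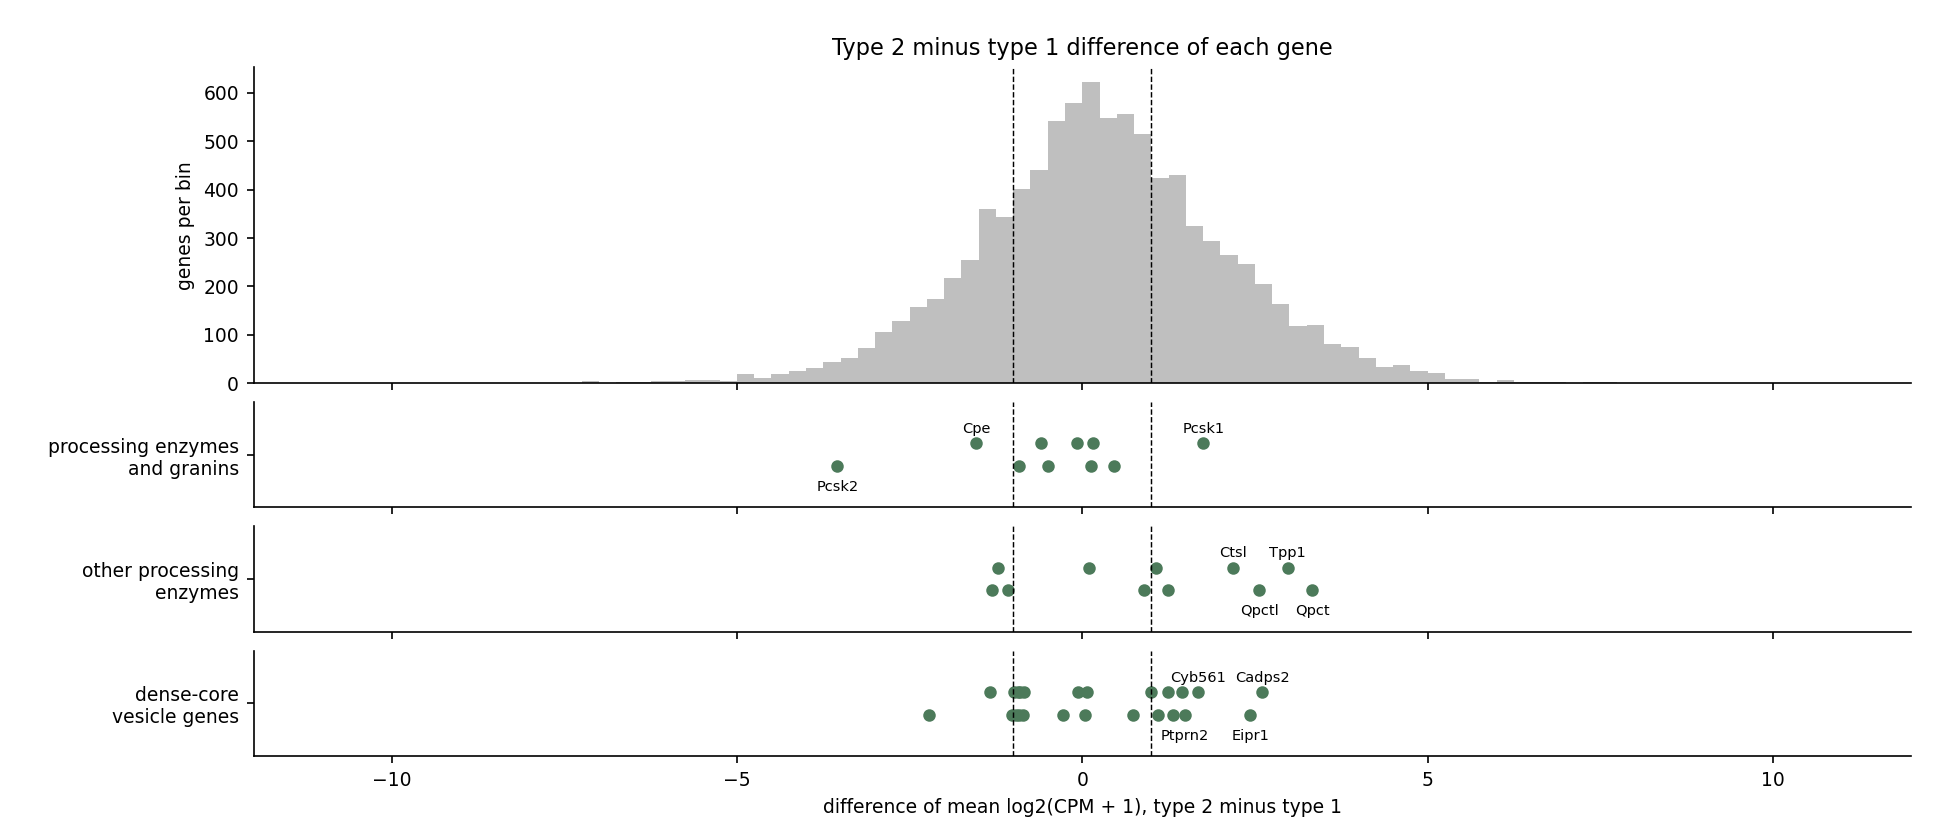
Mean log2(CPM + 1) of type 2 minus that of type 1 for each gene, with 5 neurons in each type. The top panel counts the 9212 measured genes per bin, the lower panels show the genes of 3 lists as points, and dashed lines mark 2-fold. Pcsk2 is at -3.54, Cpe at -1.53 and Pcsk1 at 1.75, and the other 7 processing enzyme and granin genes lie between the dashed lines.

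The log2 differences of the convertases had opposite signs, though that of Pcsk1 rested on the type 1 neuron 8-2. Pcsk2 (ENSMUSG00000027419, chr2:143546156-143816285, plus strand) was at 2.87 CPM in 6-2, 0.312 in 10-1, 133 in 10-3, 1.30 in 9-2 and 34.2 in 9-4, all type 2. In type 1 it was at 103 CPM in 1-1, 110 in 1-2, 81.5 in 4-3, 149 in 8-2 and 82.1 in 9-1. The type 1 neurons were thus alike, while 3 type 2 neurons were near 0, 9-4 was lower than every type 1 neuron, and 10-3 lay inside the type 1 range. The SD of log2(CPM + 1) over the 10 neurons was 2.67 for Pcsk2, 2.57 for Pcsk1 and 2.61 for Vgf. Its median over the 9212 genes whose mean reached 10 CPM was 2.54, so a spread this wide was usual in these libraries. Pcsk2 averaged 34.3 ± 56.9 CPM over type 2 neurons and 105 ± 27.6 CPM over type 1 neurons (SD, n = 5 each), a log2 difference of -3.54. Detection was in 2 of 5 cells of type 2 (40.0%, with an exact binomial 95% interval of 5.27 to 85.3%) and in 5 of 5 of type 1 (100%, 47.8 to 100%). Pooled over the cells of a type, the counts gave 39.8 CPM for type 2 (38.8 to 40.9, an exact Poisson 95% interval) and 113 CPM for type 1 (111 to 115), where these intervals cover counting error only because amplified reads are not independent molecules. The 3 low type 2 libraries held 35, 13 and 37 Pcsk2 counts, so they were above the 3 counts taken as the floor. With every library thinned to the smallest total the log2 difference was -3.45. Without 10-3 the ranges of the types separated and the log2 difference was -4.52. Without 6-2, 9-2 and 9-4, the type 2 neurons with the most microglia markers, it was -2.97. That leaves 10-1, near 0, and 10-3, inside the type 1 range, as the only type 2 neurons. An antisense gene, Pcsk2os1, shares 260 exon bases with Pcsk2, and reached 21.8 CPM in 10-3 and 91.6 CPM in 4-3, with at most 0.0319 CPM elsewhere. Whether the authors counted by strand is not known, so Pcsk2 in those 2 neurons is uncertain.

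Pcsk1 (ENSMUSG00000021587, chr13:75089826-75134861, plus strand) was at 245 CPM in 6-2, 109 in 10-1, 114 in 10-3, 426 in 9-2 and 410 in 9-4 of type 2. In type 1 it was at 541 CPM in 1-1, 452 in 1-2, 132 in 4-3, 0.741 in 8-2 and 21.3 in 9-1. All 5 type 2 neurons therefore had Pcsk1, while the type 1 neurons spanned both the highest and the lowest levels of the 10. The means were 261 ± 153 CPM over type 2 neurons and 229 ± 251 CPM over type 1 neurons (SD, n = 5 each), and the log2 difference was 1.75. That difference rested on 8-2, which held 31 Pcsk1 counts, and without 8-2 it was 0.44. It was 0.77 without 6-2, 9-2 and 9-4, which leaves 10-1 and 10-3 in type 2, and 0.89 when medians replaced means. Among the 6 libraries of at least 20000000 counts it was 5.13, and among the 4 under 20000000, where 6-2 is the only type 2 neuron, it was -0.38.

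The balance between the convertases was weighed in each neuron. The log2 ratio of Pcsk2 to Pcsk1, each with 1 CPM added, was -5.99 in 6-2, -6.39 in 10-1, 0.21 in 10-3, -7.54 in 9-2 and -3.54 in 9-4. In type 1 it was -2.38 in 1-1, -2.03 in 1-2, -0.69 in 4-3, 6.43 in 8-2 and 1.90 in 9-1. Pcsk1 dominated in 4 of 5 type 2 neurons beyond any type 1 neuron, and 10-3 lay among the type 1 neurons. The mean ratio was -4.65 ± 3.08 in type 2 and 0.65 ± 3.64 in type 1 (SD, n = 5 neurons each), a difference of -5.30. Levels of different genes were compared per kilobase of the longest coding transcript, 5040 bases for Pcsk1 and 4723 for Pcsk2. On that scale Pcsk1 exceeded Pcsk2 by 79.8-fold in 6-2, 327-fold in 10-1, 308-fold in 9-2 and 11.2-fold in 9-4, and Pcsk2 exceeded Pcsk1 by 1.24-fold in 10-3. Among type 1 neurons, Pcsk1 exceeded Pcsk2 by 4.92-fold in 1-1, 3.84-fold in 1-2 and 1.52-fold in 4-3, whereas Pcsk2 exceeded Pcsk1 by 215-fold in 8-2 and 4.12-fold in 9-1.

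**Figure D2:**
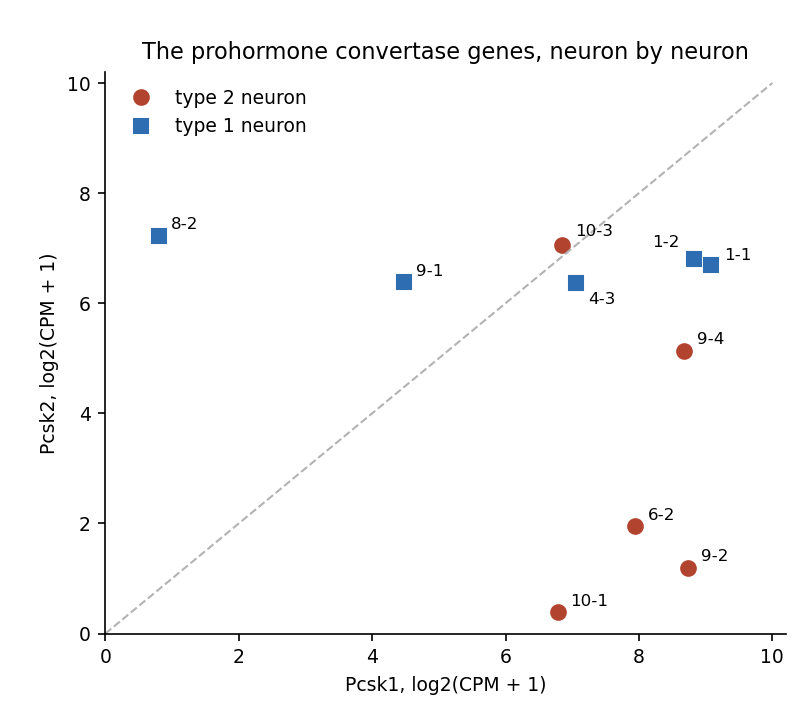
Pcsk1 (x axis) against Pcsk2 (y axis) in each neuron, both as log2(CPM + 1), with circles for type 2 and squares for type 1 and a dashed line where the levels are equal. The 5 type 1 neurons lie in a band of Pcsk2 between 81.5 and 149 CPM at any Pcsk1 level, and 4 type 2 neurons lie below that band.

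The bases before the start of the convertase genes are shown because these genes were the furthest apart of the 10 in opposite directions. They are RefSeq sequences on GRCm38.p6, 250 bases each on the plus strand, at chr13:75089607-75089856 for Pcsk1 and chr2:143545883-143546132 for Pcsk2. The RefSeq starts differ from the GENCODE gene starts given above. By the GENCODE starts, the Pcsk1 stretch runs into the gene and the Pcsk2 stretch ends short of it. Capitals mark the cAMP response element TGACGTCA, which is its own reverse complement and holds its core TGACG on each strand, and that core alone on either strand.
Pcsk1: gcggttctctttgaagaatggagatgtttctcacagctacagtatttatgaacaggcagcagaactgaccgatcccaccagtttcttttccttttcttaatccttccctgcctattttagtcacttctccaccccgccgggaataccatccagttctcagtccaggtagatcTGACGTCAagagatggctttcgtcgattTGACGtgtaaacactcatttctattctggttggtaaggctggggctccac
Pcsk2: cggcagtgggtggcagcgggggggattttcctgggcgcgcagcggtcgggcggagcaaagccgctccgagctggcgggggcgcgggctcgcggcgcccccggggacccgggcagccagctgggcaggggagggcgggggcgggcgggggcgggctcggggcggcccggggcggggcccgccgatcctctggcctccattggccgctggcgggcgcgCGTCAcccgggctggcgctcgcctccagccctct
The cAMP response element is bound by CREB-family factors in many genes of secretory neurons. Of the 10 genes, 8 matched an entry, and each window searched ran from 250 bases before to 50 bases after the RefSeq start. The full element stood in the windows of 3 genes, Pcsk1, Chgb and Scg2, and in 1.79% of all 32851 windows. The core TGACG stood in 6 of the 8, the 3 named and Pcsk2, Scg5 and Chga, and in 20.8% of all windows. The TATA box letters TATAAA, searched on both strands, stood in the Chga window alone of the 8 and in 13.6% of all windows. Pcsk1, Chgb and Scg2 share the element and had log2 differences of 1.75, -0.50 and -0.08.

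The proteins that bind the convertases were detected in every neuron. Pcsk1n (ENSMUSG00000039278, chrX:7919822-7924410, plus strand) encodes proSAAS, an inhibitor of PC1/3. It was at 745 CPM in 6-2, 677 in 10-1, 1145 in 10-3, 1083 in 9-2 and 866 in 9-4, and in type 1 at 1705 in 1-1, 653 in 1-2, 1065 in 4-3, 398 in 8-2 and 671 in 9-1. It was detected in every neuron, and the types overlapped, at a log2 difference of 0.15. Its SD of log2(CPM + 1) over the 10 neurons was 0.58, the lowest of the 10 genes. In 8-2, where Pcsk1 was lowest, Pcsk1n was also lowest, and in 1-1 both were highest.

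Scg5 (ENSMUSG00000023236, chr2:113776362-113829121, minus strand) encodes 7B2, the chaperone that PC2 needs to become active. It was at 169 CPM in 6-2, 367 in 10-1, 256 in 10-3, 467 in 9-2 and 534 in 9-4 of type 2, and at 1029.7 in 1-1, 689 in 1-2, 534 in 4-3, 363 in 8-2 and 680 in 9-1 of type 1. Type 2 values were mostly the lower ones, and 3 of 5 type 1 neurons exceeded the highest type 2 neuron, 9-4, which 4-3 matched to the digits shown. The means were 359 ± 149 CPM over type 2 neurons and 659 ± 246 CPM over type 1 neurons (SD, n = 5 each), a log2 difference of -0.91. Leaving out any 1 neuron kept the log2 difference between -1.10 and -0.67. It was -0.34 among the libraries of at least 20000000 counts and -2.09 among those under it. Scg5 stayed present at 169 to 467 CPM in the 3 type 2 neurons where Pcsk2 was near 0.

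**Figure D3:**
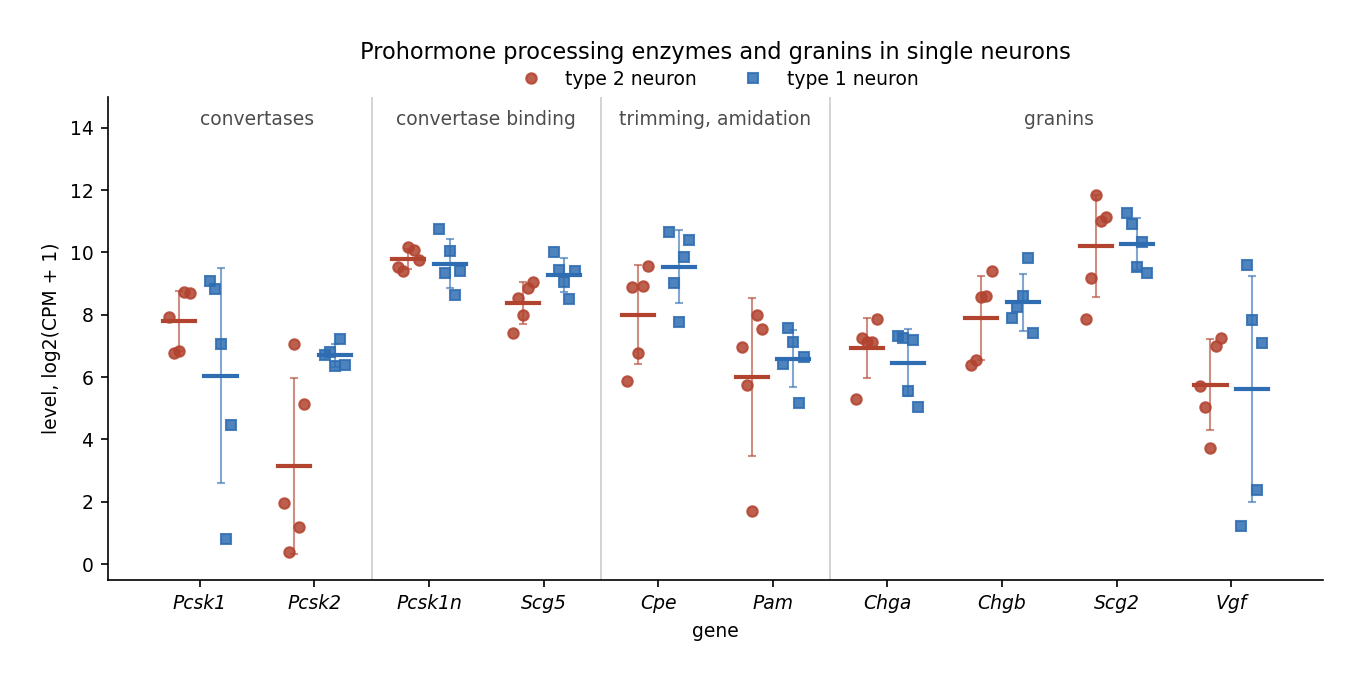
Level of each processing enzyme and granin gene as log2(CPM + 1), with circles for the 5 type 2 neurons and squares for the 5 type 1 neurons. Thick bars are means and thin error bars are SDs between neurons, and Pcsk2 in type 2 and Pcsk1 and Vgf in type 1 are the widest spread. Pcsk1n runs between 398 and 1705 CPM over all 10 neurons.

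Cpe (ENSMUSG00000037852, chr8:64592542-64693054, minus strand), the carboxypeptidase that trims basic residues after the convertases, was lower in type 2 than in type 1. It was at 57.8 CPM in 6-2, 471 in 10-1, 108 in 10-3, 487 in 9-2 and 760 in 9-4, and in type 1 at 1606 in 1-1, 523 in 1-2, 215 in 4-3, 924 in 8-2 and 1362 in 9-1. The lowest values, in 6-2 and 10-3, were type 2 and the 3 highest were type 1, with the others interleaved. The means were 377 ± 292 CPM over type 2 neurons and 926 ± 575 CPM over type 1 neurons (SD, n = 5 each), a log2 difference of -1.53. It ran from -1.98 to -1.002 when any 1 neuron was left out, and was -0.97 with medians over neurons. Without 6-2, 9-2 and 9-4, which leaves 10-1 and 10-3 in type 2, it was -1.71.

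Pam (ENSMUSG00000026335, chr1:97795114-98095646, minus strand), the amidating enzyme, was at 123 CPM in 6-2, 52.7 in 10-1, 2.26 in 10-3, 253 in 9-2 and 187 in 9-4 of type 2. In type 1 it was at 84.5 CPM in 1-1, 191 in 1-2, 139 in 4-3, 34.7 in 8-2 and 99.1 in 9-1. Apart from 10-3, where 82 counts were found, the types covered the same range. The log2 difference of -0.60 rested on 10-3 and was 0.47 without it. Without 6-2, 9-2 and 9-4, which leaves 10-1 and 10-3, it was -2.86. Pam shares 188 exon bases with B230216N24Rik on the same strand, which had 11.8 to 264 CPM, so reads of the shared bases could come from either gene and Pam is uncertain.

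The granins showed no common direction. Scg2 (ENSMUSG00000050711, chr1:79434669-79440120, minus strand), the precursor of secretoneurin, was at 230 CPM in 6-2, 582 in 10-1, 3638 in 10-3, 2038 in 9-2 and 2230 in 9-4. In type 1 it was at 2463 in 1-1, 1920 in 1-2, 747 in 4-3, 1302 in 8-2 and 642 in 9-1, and the log2 difference was -0.08, which ran from -0.49 to 0.50 as each neuron in turn was left out and so had no settled direction. Scg2 made up 57.2 to 87.3% of the reads of the 4 granins in type 2 and 53.2 to 86.1% in type 1. It was the largest of the 4 by read count in every neuron, and its own highest and lowest neurons were both type 2.

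Chgb (ENSMUSG00000027350, chr2:132781278-132795079, plus strand), chromogranin B, was at 82.3 CPM in 6-2, 92.6 in 10-1, 381 in 10-3, 383 in 9-2 and 674 in 9-4, against 239 in 1-1, 304 in 1-2, 385 in 4-3, 909 in 8-2 and 168 in 9-1 of type 1. The log2 difference was -0.50 (-0.87 to -0.12 as each neuron was left out) and the ranges overlapped throughout. Chga (ENSMUSG00000021194, chr12:102554969-102565028, plus strand), chromogranin A, was at 38.0 CPM in 6-2, 150 in 10-1, 137 in 10-3, 138 in 9-2 and 229 in 9-4, against 157 in 1-1, 150 in 1-2, 45.4 in 4-3, 143 in 8-2 and 32.1 in 9-1 of type 1. Its log2 difference was 0.46 (0.11 to 0.87 as each neuron was left out), and 6-2 stood below the other 4 type 2 neurons. In 6-2 all of Chga, Chgb, Scg2 and Cpe were at the lowest level of any type 2 neuron.

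Vgf (ENSMUSG00000037428, chr5:137026392-137033351, plus strand), a neurotrophin-inducible secretory protein, was the most variable granin. It was at 51.7 CPM in 6-2, 31.7 in 10-1, 12.2 in 10-3, 128 in 9-2 and 153 in 9-4, and in type 1 at 1.34 in 1-1, 773 in 1-2, 227 in 4-3, 4.21 in 8-2 and 137 in 9-1. Vgf was detected in all 5 type 2 neurons, and type 1 held both the 2 highest levels and the 2 neurons where it was not detected. Over the 10 neurons the SD of log2(CPM + 1) of Vgf was 2.61, near the median of 2.54 over the 9212 measured genes. The means were 75.3 ± 61.8 CPM over type 2 neurons and 228 ± 319 CPM over type 1 neurons (SD, n = 5 each), yet the log2 difference was 0.12, so averaging CPM and averaging log values gave opposite directions. That difference was -0.98 without 1-1, 1.11 without 1-2 and -1.39 with medians in place of means. The sum of the 10 genes was 1744 to 6076 CPM in type 2 and 3569 to 7930 CPM in type 1, a log2 difference of -0.33. The difference of the sums was 0.22 among libraries of at least 20000000 counts and -1.65 among those under it.

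Per kilobase of the longest coding transcript and over all 10 neurons, Scg2 was highest at 628 ± 424 CPM per kilobase (SD, n = 10 neurons). Scg5 followed at 421 ± 206, Pcsk1n at 411 ± 167, Cpe at 308 ± 245 and Chgb at 132 ± 94.6 CPM per kilobase. Chga was at 64.8 ± 33.7, Vgf at 53.6 ± 81.5, Pcsk1 at 48.6 ± 39.1, Pam at 28.4 ± 19.0 and Pcsk2 at 14.8 ± 11.9 CPM per kilobase. Every gap between neighbours in this order was smaller than the SD of the higher gene, so no neighbours differed beyond their spread, although Chgb exceeded Chga in 9 of 10 neurons. Per kilobase, Scg2, Scg5 and Pcsk1n exceeded Pcsk1 in 10 of 10 neurons, Cpe in 9 and Chgb in 8, and these 5 genes exceeded Pcsk2 in 10 of 10.

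Across the 10 neurons the genes varied mostly apart from each other. Of the 45 pairs, 6 had a Pearson r of log2(CPM + 1) above 0.5, and the median r was 0.20. The highest were Cpe with Scg5 (r = 0.83, Spearman rho 0.73), Chga with Scg2 (0.74, 0.47) and Pcsk1 with Pcsk1n (0.71, 0.50), while Pcsk1 with Pcsk2 was at -0.31 (rho -0.15). By rank the highest of the 45 pairs was Pam with Vgf (rho 0.76, r = 0.56). The values of a neuron share its library, depth and scaling, so these are descriptions and carry no p. The 3 genes most like Pcsk1 over the 10 neurons, of 6338 compared, were Phc1 (r = 0.95, Spearman rho 0.83), Slc25a5 (0.94, 0.64) and Pcdh7 (0.92, 0.76). For Pcsk2 they were Rbm28 (0.95, 0.60), Frmd5 (0.95, 0.70) and Trap1 (0.95, 0.52). Within type 1 alone (n = 5) Rbm28 had r = -0.84 and Trap1 -0.72 with Pcsk2, and within type 2 alone Pcdh7 had -0.01 with Pcsk1. The likenesses of these 3 genes thus did not hold within both types. Phc1 and Slc25a5 with Pcsk1, and Frmd5 with Pcsk2, had r of 0.65 to 0.96 within each type. For Vgf the 3 most like genes were Mrm3 (0.95, 0.92), Hipk1 (0.88, 0.81) and Thumpd1 (0.88, 0.76), with r of 0.39 to 0.98 within each type. For the genes most like Pcsk1, Pcsk2 and Vgf, the rank correlations were lower than the Pearson values in each case.

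The precursors these enzymes cut differed in kind and in amount. The 63 peptide precursors of the list summed to 7291 CPM in 6-2, 8252 in 10-1, 18480.3 in 10-3, 29664 in 9-2 and 10767 in 9-4 of type 2. In type 1 the sum was 6690 CPM in 1-1, 3066 in 1-2, 2581 in 4-3, 10104 in 8-2 and 4491 in 9-1. Gcg, Penk and Gal, for proglucagon, proenkephalin and galanin, took 92.1 to 95.9% of these reads in type 2 and 62.1 to 92.6% in type 1. Type 2 neurons carried Gcg and Penk together, with Gal at 149 CPM in 9-4, 32.6 CPM in 9-2 and 6.10 CPM or less in the others. Penk exceeded Gcg in 10-1 (4252 against 3630 CPM) and in 10-3 (9933 against 7624 CPM), and Gcg exceeded Penk in 6-2, 9-2 and 9-4. Type 1 neurons carried Gal, with Penk beside it at 4093 CPM in 8-2, 1052 CPM in 1-1, 44.3 CPM in 1-2, 13.9 CPM in 9-1 and 3.57 CPM in 4-3. The type 2 neurons that were near 0 for Pcsk2 thus had 3556 to 17679.8 CPM of Gcg alongside 109 to 426 CPM of Pcsk1. The type 2 neuron with Pcsk2 inside the type 1 range, 10-3, had 7624 CPM of Gcg. In type 1, 8-2 had 5124 CPM of Gal and 4093 CPM of Penk with 149 CPM of Pcsk2 and 0.741 CPM of Pcsk1.

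**Figure D4:**
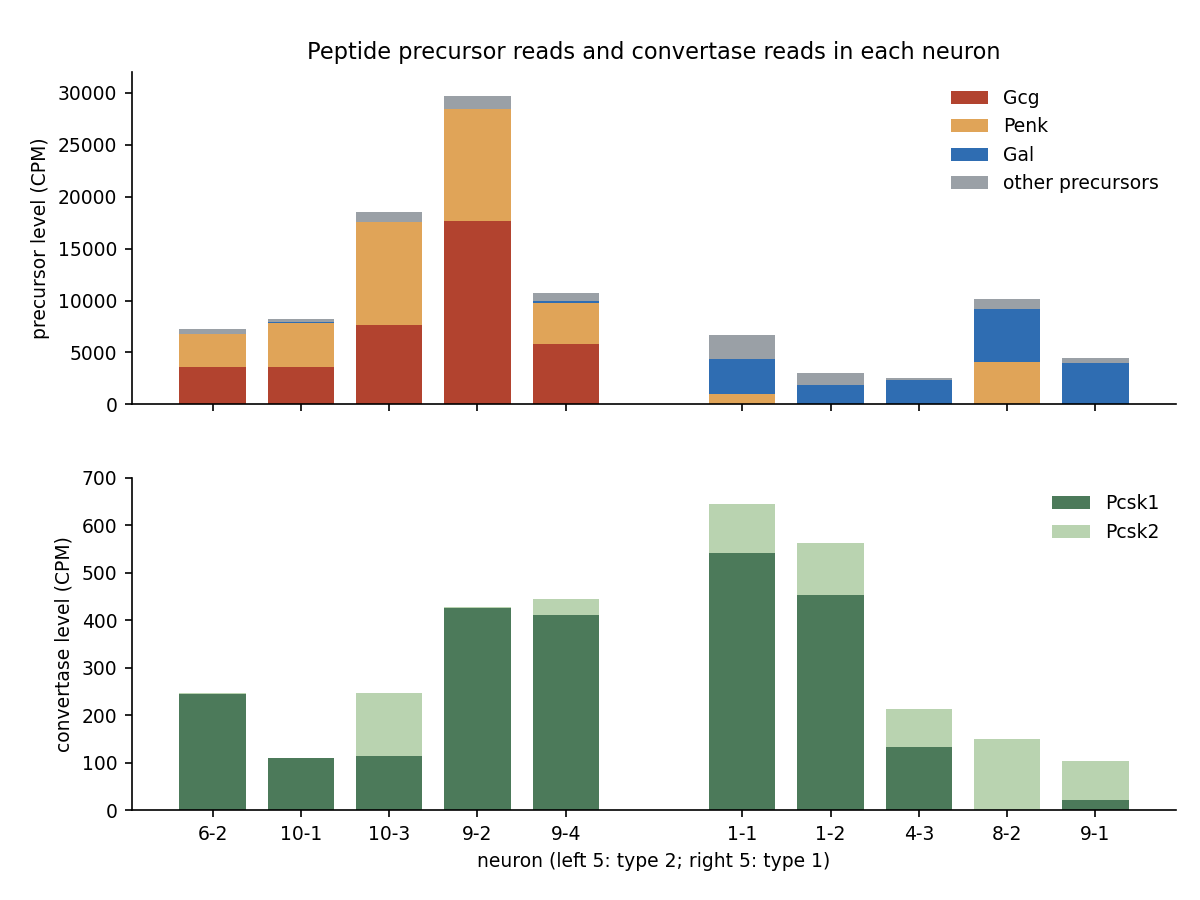
Reads of peptide precursors (top, CPM, stacked by gene) and of the convertases (bottom, CPM, stacked) in each neuron, with the 5 type 2 neurons on the left and the 5 type 1 neurons on the right. Precursor sums run from 7291 to 29664 CPM in type 2 and from 2581 to 10104 CPM in type 1. The convertase sum is 109 to 444 CPM in type 2, mostly Pcsk1, and 103 to 644 CPM in type 1.

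Convertase reads were then set against precursor reads neuron by neuron. There were 29.5 precursor reads per read of Pcsk1 or Pcsk2 in 6-2, 75.4 in 10-1, 74.7 in 10-3, 69.4 in 9-2 and 24.2 in 9-4, against 10.4 in 1-1, 5.45 in 1-2, 12.1 in 4-3, 67.5 in 8-2 and 43.4 in 9-1 of type 1. The 3 lowest ratios were type 1, and 8-2 and 9-1 lay inside the type 2 range. On the log2 scale, with 1 CPM added to each sum, the ratio was 5.61 ± 0.80 in type 2 and 4.18 ± 1.51 in type 1 (SD, n = 5 neurons each), a difference of 1.42. It was 0.04 among the libraries of at least 20000000 counts and -0.07 among the neurons whose first number is 9, and it was 1.74 among the libraries under 20000000 counts, 3 of whose 4 are type 1.

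Set against Pcsk2 alone or Cpe alone the types did not overlap. Precursor reads per Pcsk2 read ran from 139 to 26411 in type 2 and from 27.8 to 67.8 in type 1. Precursor reads per Cpe read were 126 in 6-2, 17.5 in 10-1, 171 in 10-3, 60.9 in 9-2 and 14.2 in 9-4, against 4.17 in 1-1, 5.86 in 1-2, 12.02 in 4-3, 10.9 in 8-2 and 3.30 in 9-1 of type 1. These ratios were looked at after their values were seen and combine more precursor with less enzyme in type 2. Pcsk2 and Cpe were the genes already found at least 2-fold lower in type 2. The share of all genes whose ratio would separate the types was not computed, so the separation is a description only. They are ratios of reads without correction for transcript length. Granin reads per precursor read were 0.0552 to 0.305 in type 2 and 0.218 to 1.03 in type 1, where the ranges overlapped.

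**Figure D5:**
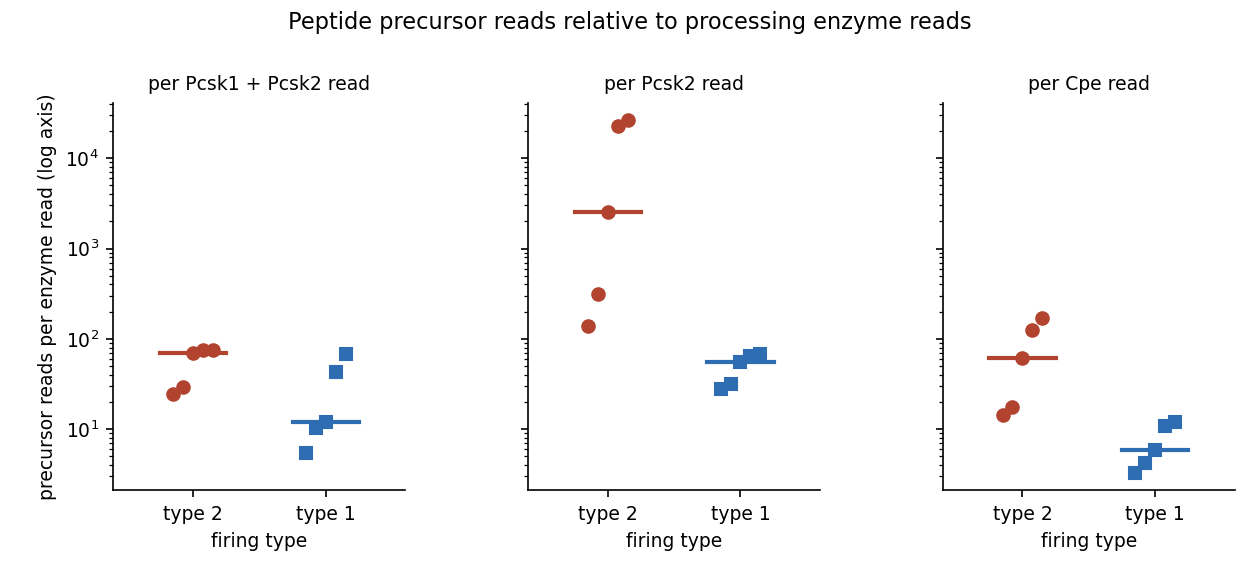
Precursor reads per read of Pcsk1 and Pcsk2 together (left), of Pcsk2 (middle) and of Cpe (right) in each neuron, on a shared log axis, with type 2 left of type 1 and bars at the medians. The types overlap in the left panel, and in the right panel type 2 runs from 14.2 to 171 and type 1 from 3.30 to 12.02.

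Precursors other than Gcg, Gal and Penk were mostly sparse. Adcyap1, for the peptide PACAP, was detected in every cell, averaging 448 ± 334 CPM over type 2 neurons and 471 ± 261 CPM over type 1 neurons (SD, n = 5 each). Pomc was detected in 5 type 2 neurons at 11.1 to 31.5 CPM, near the 10 CPM needed for detection. In type 1 it was detected in 1 neuron, 1-1, at 32.0 CPM, the highest of all 10. Cck was detected in 3 type 2 and 0 type 1 neurons and reached 756 CPM in 10-3. Cartpt was detected in 2 and 1, and Nmb, which shares exon bases with Sec11a, in 2 and 0. Calca was detected in 2 of each type and reached 1148 CPM in 1-1. Nppa was detected in 2 type 2 and 3 type 1 neurons, and Bdnf, whose precursor is also cut by convertases, in 1 and 3. Of the 63 precursors, 34 had 0 counts in all 10 neurons. The share of all genes detected in such numbers of neurons was not computed.

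Of 18 further enzymes that cut or modify peptides, 11 were measured, that is, had a mean of at least 10 CPM. Of these, 6 were at least 2-fold higher in type 2 and 3 at least 2-fold lower, which is 54.5% and 27.3% of them against 32.1% and 22.3% of all genes, and the median log2 difference was 1.06 against 0.24. The 4 furthest apart were all higher in type 2. Qpct, the glutaminyl cyclase that seals peptides with a pyroglutamate, had a median of 244 CPM in type 2 and 169 CPM in type 1 (log2 difference 3.33), and was at 0.605 CPM or less in 1-2 and 9-1. Its Golgi relative Qpctl was at 71.6 against 0.924 CPM (2.56), and shares exon bases with the antisense gene Fbxo46. Tpp1, a lysosomal tripeptidyl peptidase, was at 145 against 0.765 CPM (2.98), and the cathepsin Ctsl, which can also cut precursors in vesicles, at 312 against 179 CPM (2.18). In 6-2, 10-1, 10-3, 9-2 and 9-4 in turn, Tpp1 was at 0, 223, 114, 198 and 145 CPM. In the same order Ctsl was at 108, 312, 490, 334 and 241 CPM. Microglia markers there summed to 1846, 4.25, 47.8, 524 and 1685 CPM, and their part in these levels was not tested. When medians replaced means, 3 of the list passed 2-fold in either direction, against 9, and 28.5% and 21.3% of all genes passed upward and downward.

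Of 28 other dense-core vesicle genes, 24 were measured, 9 were at least 2-fold higher in type 2 and 3 lower, which is 37.5% and 12.5% against 32.1% and 22.3% of all genes, and the median log2 difference was -0.01 against 0.24. Eipr1, which takes part in sorting cargo to dense-core vesicles, was the 1 of 24 with type 2 entirely above, a pattern that 1.72% of all genes showed, at 70.5 to 195 CPM in type 2 and 0 to 63.9 CPM in type 1 (log2 difference 2.44). Cadps2, a priming factor for vesicle release, was detected in 3 type 2 and 1 type 1 neurons (2.61). Cyb561, the vesicle cytochrome that passes electrons inward for amidation, had type 2 and type 1 medians of 223 and 164 CPM (1.67), and was at 1.02 CPM in 9-1. Ptprn2, a vesicle membrane protein, had medians of 39.8 and 12.1 CPM (1.48). Scg3, a further granin that binds chromogranin A and carboxypeptidase E, is given after its values were seen: it averaged 232 ± 171 CPM over type 2 neurons and 438 ± 313 CPM over type 1 neurons (SD, n = 5 each), a log2 difference of -0.96. With 10 CPM added in place of 1, 6 of the vesicle genes passed 2-fold in either direction, against 12, while 17.2% of all genes passed upward and 13.3% downward.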

How the data were processed

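The authors deposited whole-number counts of reads per gene for each neuron, per the file headers, with no normalization. Per the submitters' processing notes, cutadapt 1.13, STAR, HTSeq 0.6.1p1 and DESeq2 were used with mm10. The step order, annotation release and strand option were not given in the sources used here. CPM was computed from each library's summed counts, and levels are log2(CPM + 1). A count of 0 allows 3 counts, or 0.0717 CPM in 8-2 and 0.306 CPM in 4-3. Symbols, coordinates and transcript lengths came from GENCODE M21 on GRCm38. No library copied another: over 45 pairs, chi-square divided by its degrees of freedom was at least 634.

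The genes and lists were chosen with earlier results of these data known. Named genes were the 10 genes; Gcg, Gal and Penk; other precursors detected in 2 neurons of a type; the 4 largest differences of each pathway list among genes detected in 3 neurons of a type; and the 3 genes most like Pcsk1, Pcsk2 and Vgf. No test was made, since each type is 1 sample. Python 3.11.15, pandas 2.3.3 and, for scaling alternatives, edgeR 4.0.16 and DESeq2 1.42.0 were used. The calculation was tested on simulated data with known folds and a smaller spread between neurons than here. Only medians over many genes were checked there, so it does not cover the error of a single gene. Alternatives were pseudocounts, scalings, thinning, medians, subsets of neurons, an unfiltered background and leaving out each neuron.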

Additional observations from a re-analysis of the deposited data

Results flagged for a closer look

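Chga in the type 2 neuron 6-2 was at 5.287 on the log2(CPM + 1) scale, and the other 4 type 2 neurons were at 7.11 to 7.85. Its gap to the nearest of them was large for a group of 5. It was the 1 value singled out among 32 groups examined, and chance singles out about 1 in 20 groups. 6-2 also had the lowest Chgb, Scg2 and Cpe of its type, the smallest library total of its type (12195253 counts) and 13 of 14 microglia markers detected, and the part of these in its Chga level was not tested.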

How the results depend on the processing

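Of 210 recomputed differences of the 10 genes, 197 stayed within the spread between neurons, 12 moved beyond it and 1 was counted as reversed. That was Pcsk1, at -0.38 among libraries under 20000000 counts. Leaving out 1 neuron of 5 cannot shift a difference by as much as that spread, so every such value was bound to count as within. For the other settings the spread was wide, up to 2.77 log2 units for Vgf. The 197 is therefore no measure of stability. Only genes at least 2-fold apart in the main comparison, Pcsk1, Pcsk2 and Cpe, could be counted as reversed. Differences of Pam, Pcsk1n, Chga, Chgb, Scg2 and Vgf also changed sign in some settings, and these changes were counted as within or beyond the spread. Vgf went from 0.12 to -1.39 with medians, and Pam from -0.60 to 0.47 without 10-3. Pcsk2 was lower in type 2 in every setting (-4.75 to -2.18). The type 2 minus type 1 difference of the Pcsk2 to Pcsk1 log2 ratio stayed between -8.48 and -3.35. Values given below for the summed level and the precursor to convertase ratio are likewise type 2 minus type 1 differences on the log2 scale. With a pseudocount of 10, 6 dense-core vesicle genes and 4 other processing enzymes passed 2-fold, against 12 and 9, and the shares of all genes past it were 17.2% upward and 13.3% downward, against 32.1% and 22.3%. With medians the summed level was 0.35 and 3 other processing enzymes passed (28.5% and 21.3% of all genes). Among libraries of at least 20000000 counts 5 of the 10 genes passed 2-fold (29.7% of all genes upward, 29.9% downward), 3 had separate ranges (8.65% and 8.71%) and the precursor to convertase ratio was 0.0409. Among those under 20000000, with 6-2 as the only type 2 neuron, 6 passed (44.4% and 23.3%), 6 had separate ranges (26.3% and 11.6%), the summed level was -1.65 and 5 other processing enzymes passed. Among neurons with first number 9, with 9-1 as the only type 1 neuron, 7 passed (38.2% and 27.7%), 9 had separate ranges (39.1% and 32.8%), the summed level was 0.56 and the precursor ratio was -0.0726. Without 6-2, 9-2 and 9-4, with 10-1 and 10-3 as the only type 2 neurons, 5 passed (32.3% and 31.9%). The cause was not tested. Leaving out 1 neuron gave 3 to 5 genes past 2-fold (5 without 9-2), 0 to 1 with separate ranges (1 without 10-3) and 5 to 9 other processing enzymes (5 without 9-1). TMM scaling moved the median of all genes to 0.41. No paired analysis was possible because no test between the types was made and the labels do not say what the numbers in the neuron names, some of which occur in both types, stand for. Depth limits values near 0, and RNA lost before sequencing is not covered by the floors.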
